A study of Huso dauricus with 9 samples.

Results

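The transcripts of 35 genes for subunits of the constitutive 26S proteasome were followed in the gut of kaluga sturgeon (Huso dauricus) before and after release into a river. They were chosen from a table of 59331 assembled transcripts by their Swiss-Prot description, which had to name a proteasome subunit, the 26S proteasome or a 26S protease regulatory subunit. That search returned 62 transcripts, of which 3 belonged to PSMB8 or PSMB9 and were set aside. The remaining 59 stood for 35 genes, and the transcript with the highest mean level represented each gene, which left 24 further transcripts. The 35 genes comprised 14 of the core particle, 18 of the regulatory particle and 3 assembly chaperones (PSMD5, PSMD9 and PSMD10) whose annotation carries the name of a 26S subunit. PSMB10 is not among them, since no transcript of the search was described as PSMB10.

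Gut libraries were made from 3 fish on day 0 of stock enhancement (Ori), 3 fish on day 14 (D14FL) and 3 fish on day 30 (D30FL). The fish carried a dye mark, had adapted for a short time before release and were netted again from the river, so each group holds other fish and a replicate number pairs none of them. A day 7 group was not analysed here, and the labels give no strain, sex or age. The labels name no fish kept back from release, so time in the river, date, food and growth cannot be told apart, nor can a batch of sampling from the group.

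The proteasome is the protease complex that degrades most short-lived and damaged proteins once they carry ubiquitin. Its core particle is a barrel of stacked rings, in which alpha subunits form the gated outer rings and beta subunits the inner rings that hold the cutting sites. The regulatory particle caps the barrel, where a ring of ATPases unfolds the substrate and non-ATPase subunits bind ubiquitin chains and remove them. The gut epithelium renews itself continuously and makes much protein, and the complex is found in all of its cells.

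The domains that the deposited annotation lists followed these roles. All 7 alpha subunits carried the proteasome subunit domain with the N-terminal signature of the A type, and all 7 beta subunits carried the domain without that signature. The 6 ATPases (PSMC1 to PSMC6) carried an AAA ATPase domain. Among the 12 non-ATPase subunits, PSMD3, PSMD6, PSMD11, PSMD12 and PSMD13 held a PCI domain, a fold typical of lid subunits, and PSMD7 and PSMD14 held the MPN domain of deubiquitinases. The best protein match was a fish for 32 of the 35 genes, among them 10 sturgeon proteins, and a land vertebrate for PSMA1, PSMC5 and PSMD4.

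Levels are FPKM, which divides the fragments of a transcript by its length and by the size of the library, and comparisons were made with limma on log2(FPKM + 1) over 54200 tested transcripts, with Benjamini-Hochberg adjusted p-values. The FPKM of a library summed to between 810895 and 929953, and 35812 to 49503 transcripts reached 1 FPKM, fewest in Ori 1. The median tested transcript stood 0.38 higher in D14FL and 0.37 higher in D30FL than in Ori on the log2 scale. Changes are therefore given relative to that median. Each standard error (SE) and adjusted p is that of the change before the median was subtracted. The spread of the median itself between fish is thus not part of the SE. Where a gene is said to stand at a signed value, that value is its relative log2 change. Values of a group follow the order of replicates 1, 2 and 3, and both comparisons with Ori share the same 3 Ori fish.

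All 35 genes were tested, and all stood above the level of the median tested transcript (3.24 FPKM by mean over libraries). A total of 29 of them were in the top 10% of transcripts. The 14 core particle genes had mean levels of 42.1 to 177 FPKM with a median of 104. The 18 regulatory particle genes had mean levels of 10.04 to 85.1 FPKM with a median of 44.9, and the 3 chaperones 10.7 to 21.8 FPKM. The order began with PSMB2, PSMA2, PSMB4, PSMB3 and PSMB1 and ended with PSMD8, PSMD5 and PSMD1. PSMB5, which carries the chymotrypsin-like site, was the lowest core gene, and SEM1, the smallest lid subunit, the highest regulatory gene. In 31 of the 34 neighbouring pairs the means differed by less than the larger SD of the pair over the 9 libraries, as with PSMB7 and SEM1, whose means were 85.3 and 85.1 FPKM. The exceptions were PSMD7 above PSMD10, PSMD9 above PSMD8, and PSMD8 above PSMD5.

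**Figure D1:**
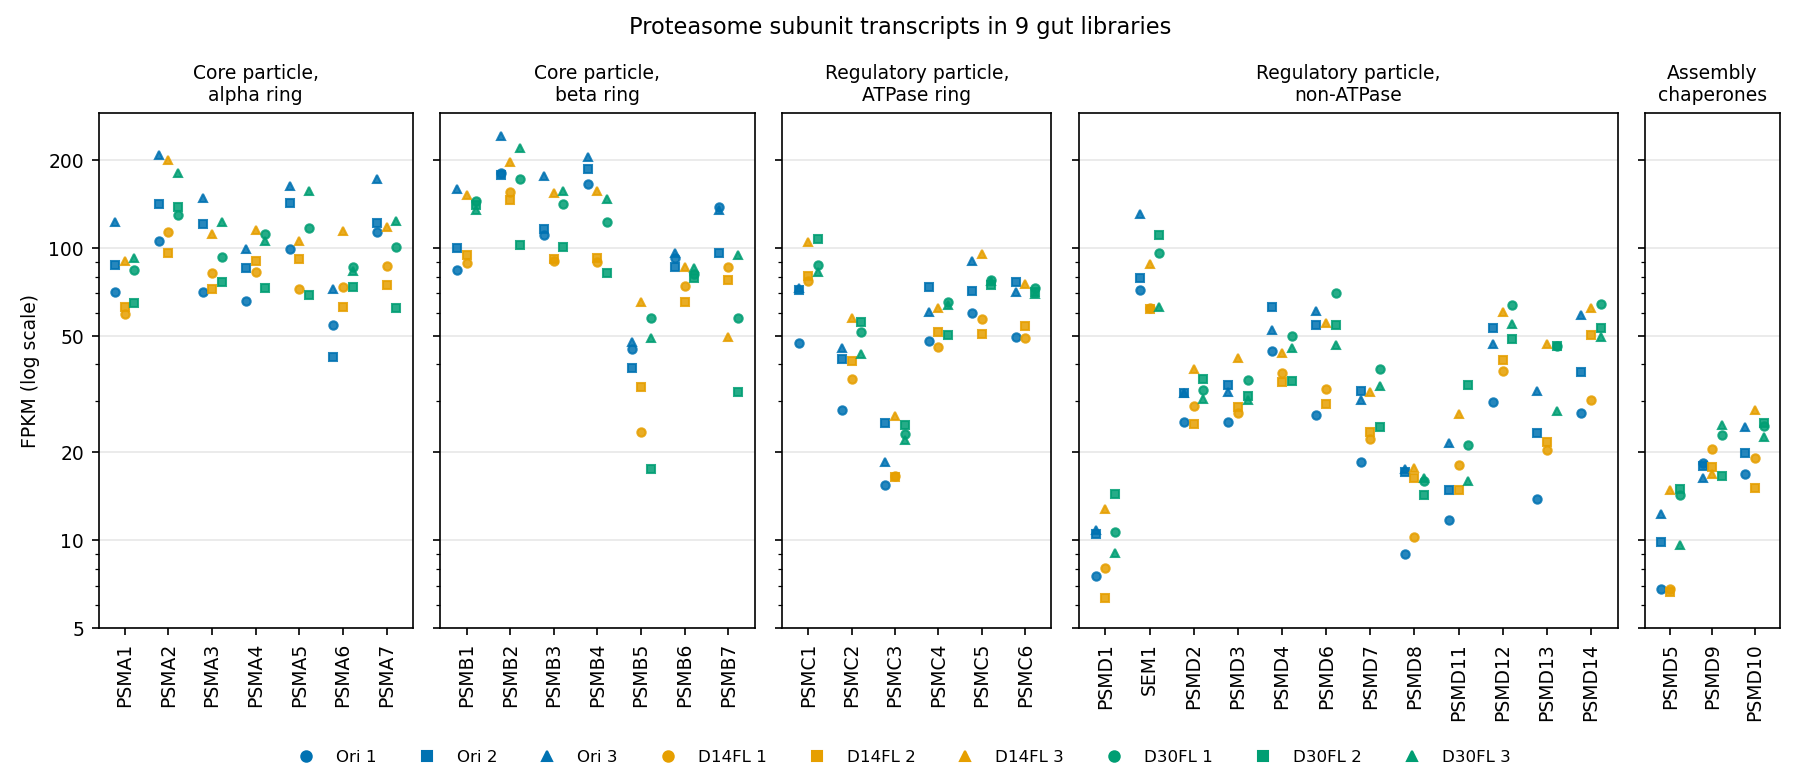
FPKM on a log axis of the 35 proteasome genes, grouped by role, with 1 point for each of the 9 libraries; colour gives the group and shape the replicate. Core genes lie mostly above regulatory genes, PSMB5 and PSMB7 spread most among the core genes, and the Ori points of PSMB4, PSMB6 and PSMB7 lie above those of D14FL and D30FL.

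No proteasome gene passed an adjusted p of 0.05 in any comparison of limma. On day 14 against day 0 this was 0 of 35, where 2.77% of all tested transcripts passed (2.17% higher and 0.6% lower), and on day 30 against day 0 it was 0 of 35, where 3.22% passed (2.49% higher and 0.732% lower). At an unadjusted p under 0.05 the count was 1 of 35 on day 14 (PSMB4, against 23.1% of all transcripts) and 1 of 35 on day 30 (PSMB7, against 24% of all transcripts). These counts, too, are of changes before the median was subtracted, and do not count genes that differed from the median transcript. The 95% confidence interval of a log2 change reached from 0.56 to 1.02 to either side of the estimate, with a median of 0.72. A p that misses the threshold does not show that levels stayed the same. With 3 fish a group, a change smaller than these widths could not reach an unadjusted p of 0.05. A call needed a larger change still. The largest unadjusted p (limma) among the called transcripts was 0.00138 on day 14 and 0.00161 on day 30.

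The median relative log2 change of the core genes was -0.67 on day 14 and -0.56 on day 30. That of the regulatory genes was -0.37 on day 14 and -0.14 on day 30. Core genes lay below the median of all transcripts in 13 of 14 cases on both days, and regulatory genes in 17 of 18 cases on day 14 and 12 of 18 on day 30, where 50% of all transcripts do so by construction. Before the median was subtracted, the core medians were -0.28 and -0.18, and the regulatory medians 0.02 and 0.23. The regulatory medians were thus positive as deposited, but -0.46 and -0.20 with median-of-ratios scaling and -0.27 and -0.03 with quantile scaling, so their direction rests on the scaling on both days. The core medians stayed negative, at -0.78 and -0.65 with median-of-ratios scaling and at -0.42 and -0.31 with quantile scaling. The relative regulatory median was -0.55 without D14FL 3 on day 14, and -0.26 without Ori 1 and -0.06 without Ori 2 on day 30. These medians describe the lists and were not tested.

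**Figure D2:**
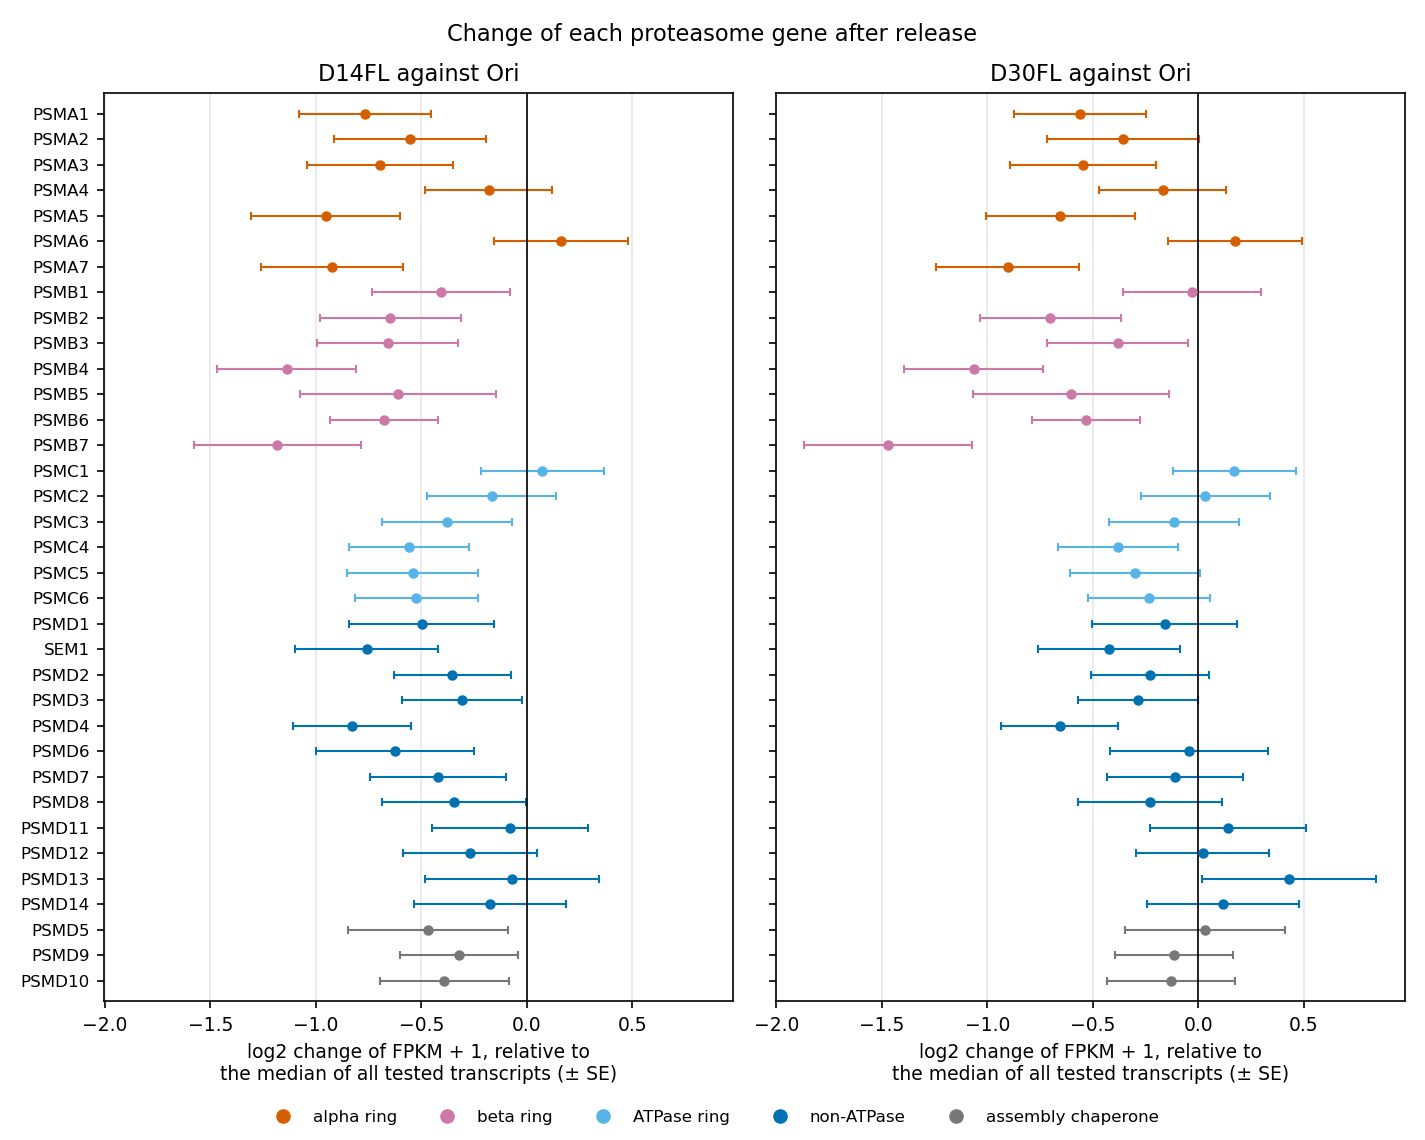
Log2 change of FPKM + 1 of each proteasome gene in D14FL and in D30FL against Ori, relative to the median of all tested transcripts (vertical line at 0), with bars of 1 SE and colour by role. Among core genes PSMA6 alone lies to the right of the line on both days, and PSMB7 lies farthest to the left, at -1.18 and -1.47.

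The alpha ring genes encode the outer rings that open and close the entry to the barrel. PSMA2 had the highest level of the ring, with 106, 142 and 208 FPKM in Ori, 114, 96.4 and 199.9 in D14FL and 129.6, 138 and 180.3 in D30FL. Its groups overlapped, and the third library was the highest in each group. Relative to the median transcript, PSMA2 stood at -0.55 ± 0.36 (SE; adjusted p = 0.800) on day 14 and -0.36 ± 0.36 (SE; adjusted p = 0.983) on day 30.

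PSMA5 measured 99.8, 143 and 163 FPKM in Ori, 72.4, 91.9 and 106 in D14FL and 118, 69.3 and 157 in D30FL. Its D14FL libraries lay below or just above the lowest Ori library and D30FL 2 was the lowest of all, yet D30FL 3 came close to the highest Ori fish. The relative log2 change was -0.95 ± 0.35 (SE; adjusted p = 0.343) on day 14 and -0.66 ± 0.35 (SE; adjusted p = 0.638) on day 30. PSMA7 measured 114, 122 and 173 FPKM in Ori, 87.1, 74.8 and 119 in D14FL and 101, 62.6 and 124 in D30FL. Its Ori fish were high and D30FL 2 was again the lowest, but the highest fish of D14FL and D30FL overlapped the Ori range. PSMA7 stood at -0.92 ± 0.34 (SE; adjusted p = 0.347) on day 14 and -0.90 ± 0.34 (SE; adjusted p = 0.345) on day 30.

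PSMA6 measured 54.6, 42.3 and 72.7 FPKM in Ori, 73.7, 63.0 and 115 in D14FL and 86.1, 73.7 and 83.8 in D30FL. Every D30FL library lay above every Ori library, by a narrow margin at D30FL 2, while D14FL overlapped Ori. Against the median transcript its change was 0.16 ± 0.32 (SE; adjusted p = 0.313) on day 14 and 0.17 ± 0.32 (SE; adjusted p = 0.307) on day 30. A second PSMA6 transcript, with a mean of 62.1 FPKM in Ori against 56.5 for this one, overlapped Ori on both days. That second transcript stood at -0.73 ± 0.30 (SE; adjusted p = 0.490) on day 14 and -0.53 ± 0.30 (SE; adjusted p = 0.760) on day 30. The other alpha genes (PSMA1, PSMA3 and PSMA4) ranged over 59.7 to 123, 70.8 to 148 and 66.1 to 115 FPKM, and their groups overlapped in both comparisons with Ori. For the ring as a whole, 6 of 7 genes lay below the median transcript on each day, with a median relative change of -0.70 on day 14 and -0.55 on day 30.

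The beta ring genes encode the inner rings, and PSMB5, PSMB6 and PSMB7 among them carry the chymotrypsin-like, caspase-like and trypsin-like sites. All 7 beta genes lay below the median transcript on both days, with median relative changes of -0.66 and -0.61. PSMB2, a structural beta subunit, had the highest level of all proteasome genes, with 180.2, 178 and 242 FPKM in Ori, 156, 146 and 197 in D14FL and 172, 103 and 219.9 in D30FL. Its groups overlapped, and D30FL 2 was far below every other library. Its relative change was -0.65 ± 0.34 (SE; adjusted p = 0.652) on day 14 and -0.70 ± 0.34 (SE; adjusted p = 0.557) on day 30.

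PSMB4, whose tail helps to close the barrel during assembly, measured 166, 187 and 204 FPKM in Ori, 89.8, 92.6 and 157 in D14FL and 123, 82.5 and 147 in D30FL. All D14FL and all D30FL libraries lay below the lowest Ori library. The relative log2 change was -1.14 ± 0.33 (SE; adjusted p = 0.198) on day 14 and -1.07 ± 0.33 (SE; adjusted p = 0.223) on day 30.

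PSMB7 measured 138, 96.3 and 135 FPKM in Ori, 86.3, 77.7 and 49.6 in D14FL and 57.7, 32.1 and 95.1 in D30FL. All D14FL and D30FL libraries lay below all Ori libraries, though D30FL 3 fell only just short of Ori 2. The relative log2 change was -1.18 ± 0.40 (SE; adjusted p = 0.246) on day 14 and -1.47 ± 0.40 (SE; adjusted p = 0.127) on day 30, the lowest of the 35 genes on both days. That place rests on the choice of transcript, since the 2 transcripts named PSMB7 had nearly equal means of 85.3 and 84.9 FPKM. PSMB7 was also the gene that 1 fish decided: without D30FL 3 its relative change on day 30 was -1.92 and passed the test (limma, adjusted p = 0.0356), and without D30FL 2 it was -0.98 and did not (adjusted p = 0.339).

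PSMB6 spread least of all 35 genes, over 65.7 to 96.4 FPKM, and PSMB5 over 17.6 to 65.3 FPKM. PSMB6 was lower than in every Ori fish in all D14FL and all D30FL fish, with the nearest values at 86.0 FPKM in D14FL 3 and 86.5 FPKM in Ori 2. PSMB5 held to 38.8 to 47.9 FPKM in Ori but scattered widely after release, with 23.5 FPKM in D14FL 1, 65.3 in D14FL 3 and 17.6 in D30FL 2. Genes whose fish all lay below Ori were 4 of 35 on day 14 (PSMB4, PSMB6, PSMB7 and the regulatory PSMD4, against 6.7% of all transcripts) and 3 of 35 on day 30 (the same beta genes, against 6.14%). Genes whose fish all lay above Ori were 1 of 35 on day 14 (PSMC1, against 27.8% of all transcripts) and 2 of 35 on day 30 (PSMC1 and PSMA6, against 20.8%). The groups of the other 29 genes overlapped in both comparisons.

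PSMB7 had a further transcript (TRINITY_DN27588_c0_g1_i4_1) beside the one that represents the gene (TRINITY_DN38319_c0_g1_i1_1), both named proteasome subunit beta type-7. The further transcript measured 43.0, 76.9 and 75.3 FPKM in Ori, 64.7, 65.3 and 135 in D14FL and 134, 92.1 and 77.3 in D30FL. It was lowest in Ori 1 and highest in D14FL 3 and D30FL 1, and its D30FL libraries all lay above its Ori libraries. Its relative log2 change was 0.01 ± 0.38 (SE; adjusted p = 0.545) on day 14 and 0.27 ± 0.38 (SE; adjusted p = 0.318) on day 30.

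Summed over both, PSMB7 came to 181, 173 and 209.9 FPKM in Ori, 151, 143 and 185 in D14FL and 192, 124 and 172 in D30FL, so the groups overlapped. With the transcripts of each gene summed before the fit, PSMB7 stood at -0.62 on day 14 (limma, adjusted p = 0.632) and -0.60 on day 30 (adjusted p = 0.647). The representing transcript made up 76.2%, 55.6% and 64.1% of that sum in Ori, 57.2%, 54.4% and 26.8% in D14FL and 30.0%, 25.8% and 55.2% in D30FL. The further transcript made up most of the sum in D14FL 3, D30FL 1 and D30FL 2, and the representing one in the other libraries. Without a genome, it cannot be told apart whether the pair are copies of the gene, forms of 1 gene or transcripts of related genes. Both names were taken from the Swiss-Prot description, and no transcript of the search was described as PSMB10. For the representing transcript the annotation also lists the orthology entry K02739 and a C-terminal domain of proteasome beta subunits. Those entries of the further transcript were not read here. How alike the 2 sequences are was not measured here. Any reads that match both would make the split uncertain.

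**Figure D3:**
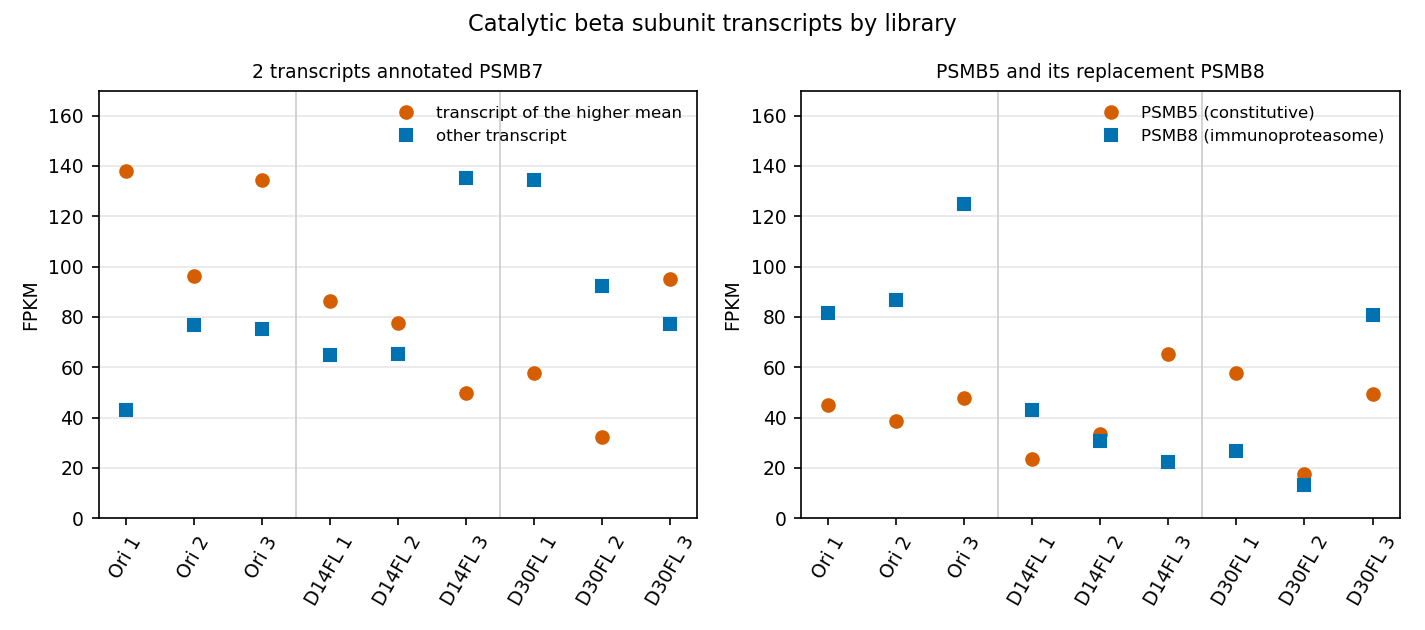
FPKM by library of both transcripts annotated PSMB7 (left) and of PSMB5 with PSMB8, the immunoproteasome subunit that takes its place (right), with 1 point per transcript and library. The further PSMB7 transcript exceeds the representing one in D14FL 3, D30FL 1 and D30FL 2, and PSMB8 exceeds PSMB5 in all Ori libraries, in D14FL 1 and in D30FL 3.

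The ATPase ring genes encode the motor that unfolds substrates and threads them into the barrel. PSMC1, whose tail helps to open the core's gate in yeast, had the highest level of the ring, with 47.4, 72.1 and 72.8 FPKM in Ori, 77.4, 80.6 and 105 in D14FL and 87.3, 108 and 83.0 in D30FL. All D14FL and D30FL libraries lay above all Ori libraries. Against the median transcript, which stood higher as well, its relative change was 0.07 ± 0.29 (SE; adjusted p = 0.355) on day 14 and 0.17 ± 0.29 (SE; adjusted p = 0.272) on day 30.

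PSMC2 measured 28.0, 41.8 and 45.5 FPKM in Ori, 35.6, 41.1 and 57.8 in D14FL and 51.8, 56.04 and 43.4 in D30FL. Ori 1 was the lowest library, and the groups overlapped. PSMC2 stood at -0.17 ± 0.31 (SE; adjusted p = 0.688) on day 14 and 0.03 ± 0.31 (SE; adjusted p = 0.427) on day 30. The other ATPase genes ranged over 15.4 to 26.7 FPKM (PSMC3), 45.7 to 73.8 FPKM (PSMC4), 50.8 to 95.2 FPKM (PSMC5) and 49.2 to 76.4 FPKM (PSMC6), with overlapping groups. The ring's median relative change was -0.45 on day 14, with 5 of 6 genes below the median transcript, and -0.18 on day 30, with 4 of 6 below it.

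The non-ATPase subunits bind ubiquitin chains, cleave them off and hold the particle together. SEM1, which bridges lid subunits, measured 72.2, 79.2 and 131 FPKM in Ori, 62.3, 62.1 and 88.1 in D14FL and 96.5, 111 and 62.8 in D30FL. Ori 3 and D30FL 2 were the highest libraries, and D14FL 1, D14FL 2 and D30FL 3 were nearly equal at the bottom, so the groups overlapped. SEM1 stood at -0.76 ± 0.34 (SE; adjusted p = 0.513) on day 14 and -0.42 ± 0.34 (SE; adjusted p = 0.937) on day 30.

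PSMD4, a ubiquitin receptor of the particle, measured 44.6, 63.1 and 52.4 FPKM in Ori, 37.4, 34.9 and 43.8 in D14FL and 50.1, 35.2 and 45.5 in D30FL. It was the only regulatory gene whose D14FL fish all lay below all Ori fish, by a small gap between D14FL 3 and Ori 1, and in D30FL the groups overlapped. The relative log2 change was -0.83 ± 0.28 (SE; adjusted p = 0.346) on day 14 and -0.66 ± 0.28 (SE; adjusted p = 0.541) on day 30, the lowest of the regulatory particle on both days.

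PSMD13, a lid subunit, measured 13.9, 23.3 and 32.6 FPKM in Ori, 20.3, 21.7 and 47.1 in D14FL and 46.4, 46.3 and 27.8 in D30FL. D14FL 3, D30FL 1 and D30FL 2 stood together at the top and Ori 1 at the bottom, while D30FL 3 fell within the Ori range. The relative log2 change was -0.07 ± 0.41 (SE; adjusted p = 0.666) on day 14 and 0.43 ± 0.41 (SE; adjusted p = 0.254) on day 30, the highest of the 35 genes on that day. PSMD11, the lid subunit that clamps the regulatory particle to the core, measured 11.7, 14.8 and 21.6 FPKM in Ori, 18.1, 14.9 and 27.1 in D14FL and 21.3, 34.1 and 16.0 in D30FL. D30FL 2 was the highest library and D30FL 3 lay inside the Ori range. Relative to the median transcript it stood at -0.08 ± 0.37 (SE; adjusted p = 0.638) on day 14 and 0.14 ± 0.37 (SE; adjusted p = 0.405) on day 30.

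PSMD6, another lid subunit, measured 26.8, 54.6 and 60.8 FPKM in Ori, 32.9, 29.4 and 55.3 in D14FL and 70.0, 54.8 and 46.6 in D30FL. Ori 1, D14FL 1 and D14FL 2 were low and D30FL 1 was the highest, with overlapping groups. PSMD6 stood at -0.63 ± 0.37 (SE; adjusted p = 0.718) on day 14 and -0.05 ± 0.37 (SE; adjusted p = 0.607) on day 30 on the relative log2 scale, and its change from day 14 to day 30 was 0.57 ± 0.37 (SE; adjusted p = 1.000), the highest of the 35 genes in that comparison.

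The other non-ATPase genes had overlapping groups throughout. PSMD14, the deubiquitinase that cleaves chains off substrates, ranged over 27.3 to 64.6 FPKM, and its partner PSMD7 over 18.6 to 38.6 FPKM. PSMD1 and PSMD2, the large scaffold subunits of the base, ranged over 6.34 to 14.4 and 25.1 to 38.6 FPKM. The lid subunits PSMD3, PSMD8 and PSMD12 ranged over 25.5 to 42.2, 8.98 to 17.6 and 29.8 to 64.1 FPKM. All 12 non-ATPase genes lay below the median transcript on day 14 (median -0.35) and 8 of 12 on day 30 (median -0.14).

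The 3 chaperones bind ATPase subunits while the regulatory particle is built and leave before it is complete. PSMD5 measured 6.81, 9.90 and 12.3 FPKM in Ori, 6.80, 6.65 and 14.8 in D14FL and 14.3, 15.0 and 9.66 in D30FL. PSMD9 measured 18.5, 17.9 and 16.3 FPKM in Ori, 20.6, 17.9 and 16.8 in D14FL and 22.9, 16.6 and 24.8 in D30FL. PSMD10, also called gankyrin, measured 16.9, 19.96 and 24.4 FPKM in Ori, 19.2, 15.2 and 27.9 in D14FL and 24.5, 25.3 and 22.5 in D30FL. The groups of all 3 genes overlapped. Their relative log2 changes were -0.47, -0.32 and -0.39 on day 14 and 0.03, -0.12 and -0.13 on day 30, with adjusted p (limma) of 0.525 or above.

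Core and regulatory particle genes were then compared within each library. The median core level was 96.3, 108 and 154 FPKM in Ori, 84.5, 84.1 and 115 in D14FL and 106, 75.3 and 123 in D30FL. The median regulatory level was 27.1, 39.7 and 46.3 FPKM in Ori, 31.6, 32.1 and 51.2 in D14FL and 50.9, 47.6 and 44.5 in D30FL. On these deposited levels neither particle's groups separated. The core was highest in Ori 3 and lowest in D30FL 2, and the regulatory particle was lowest in Ori 1 and even among the D30FL fish.

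The ratio of the core median to the regulatory median was 3.55, 2.72 and 3.33 in Ori, 2.67, 2.62 and 2.24 in D14FL and 2.09, 1.58 and 2.77 in D30FL. All D14FL ratios lay under the lowest Ori ratio, D14FL 1 and D14FL 2 by little and D14FL 3 by more, and the ratios of D30FL 1 and D30FL 2 lay lower still, while that of D30FL 3 lay within the Ori range. Taken from the summed FPKM of each particle, the ratio was 2.49, 1.904 and 2.31 in Ori, 1.91, 1.78 and 1.81 in D14FL and 1.62, 1.25 and 2.24 in D30FL, and D14FL then overlapped Ori. The mean ratio of sums was 2.24 ± 0.30 (SD, n = 3) in Ori, 1.83 ± 0.07 (SD, n = 3) in D14FL and 1.71 ± 0.50 (SD, n = 3) in D30FL. A single scaling factor per library leaves such a ratio unchanged, while quantile scaling, which also moves levels within a library, does not. The ratio describes the balance of the particles and not which of them moved, and it was not tested because the genes were chosen with earlier results known.

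**Figure D4:**
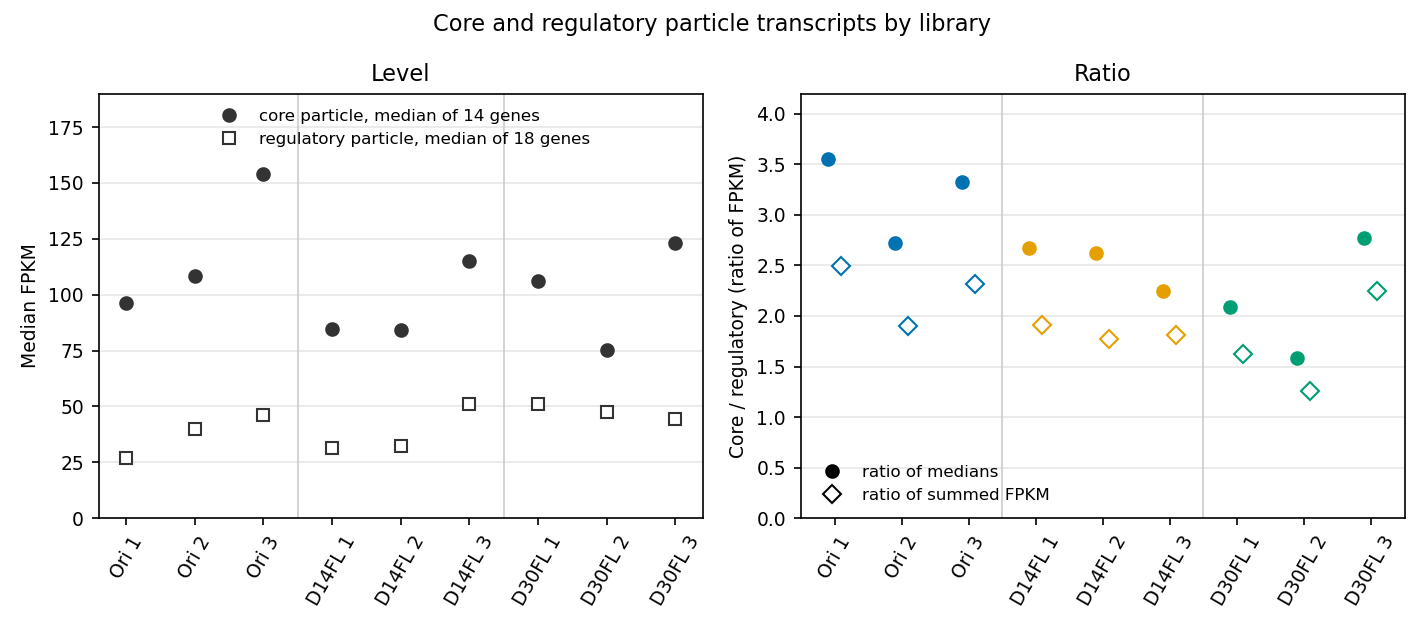
Median FPKM of the 14 core and 18 regulatory particle genes in each library (left) and the ratio of core to regulatory level as a ratio of medians and of sums (right, colour by group). The ratio of medians lies between 2.72 and 3.55 in Ori, between 2.24 and 2.67 in D14FL, and between 1.58 and 2.77 in D30FL.

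On the log2 scale, the core median minus the regulatory median of the changes was -0.30 on day 14 and -0.42 on day 30. With quantile scaling it was -0.14 on day 14 and -0.28 on day 30. Single fish weighed on both values: that of day 14 was -0.20 without Ori 1 and -0.47 without Ori 2, and that of day 30 was -0.19 without D30FL 2 and -0.58 without D30FL 3. The core median alone was -0.27 without D30FL 2 and -0.77 without D30FL 3 on day 30. D30FL 2 held the lowest value of 6 of the 14 core genes (PSMA5, PSMA7, PSMB2, PSMB4, PSMB5 and PSMB7) and of none of the 18 regulatory genes, and the highest value of PSMC1, PSMD1 and PSMD11. Ori 1 held the lowest value of 11 of the 18 regulatory genes, and Ori 3 the highest value of 10 of the 14 core genes. These are deposited levels, and the median of all tested transcripts, each set against its own mean over libraries, was also lowest in Ori 1. Relative to that median, regulatory genes stood at a median of -0.02 in Ori 1, against -0.50 in D14FL 1 and -0.35 in D14FL 2.

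Between day 14 and day 30, 0 of 35 genes passed the test in limma, where 0.00185% of all transcripts did, and 0 of 35 had an unadjusted p under 0.05, where 3.84% did. All 18 regulatory genes stood higher on day 30 relative to the median transcript, as did 32 of the 35 genes, where 50% of all transcripts do by construction. The regulatory median was 0.24 and the core median 0.10. The direction of the core median rested on single fish, since it was -0.11 without D30FL 3 and 0.37 without D30FL 2. The regulatory median was 0.13 without D14FL 1 and 0.46 without D14FL 3. The groups of all 35 genes overlapped in this comparison, where 3.83% of all transcripts separated upward and 4.46% downward. PSMB7 was the lowest at -0.30 ± 0.40 (SE; adjusted p = 1.000), and turned to 0.18 without D30FL 2.

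Levels of other cell markers differed between the same fish, and their part in the proteasome values was not tested. In bulk tissue, fewer cells of a type and less RNA per cell cannot be told apart. The summed level of 10 of 10 listed genes of dividing cells, with PCNA as the largest part, was 188 to 331 FPKM in Ori, 90.7 to 118 in D14FL and 75.4 to 247 in D30FL, where D30FL 2 was the lowest and D30FL 3 the highest. On day 30 MKI67, TOP2A, AURKA, PLK1, TYMS and RRM2 lay wholly below Ori, as 6.14% of all transcripts did. PCNA, CDK1, MCM2 and MCM5 overlapped Ori on that day. The sum of 7 of 8 epithelial genes, mostly FABP2, was 2114 to 5059 FPKM in Ori, 1967 to 2524 in D14FL and 969 to 2840 in D30FL, lowest in D30FL 2. Other genes of that list were higher in every fish after release than in every Ori fish: CDH1, which joins epithelial cells, measured 2.59 to 5.44 FPKM in Ori, 50.8 to 129 in D14FL and 67.9 to 244 in D30FL, and CDH17 28.8 to 39.97, 62.1 to 70.6 and 42.7 to 96.6 FPKM, both highest in D30FL 2. EPCAM was 6.89 to 13.02 FPKM in Ori, 14.2 to 31.6 in D14FL and 16.6 to 44.95 in D30FL. Of all transcripts, 27.8% lay wholly above Ori on day 14 and 20.8% on day 30. VIL1 (17.2 to 49.8 FPKM in Ori, 41.2 to 75.0 in D14FL, 31.7 to 47.5 in D30FL) and KRT18 overlapped Ori on both days. ANPEP was 114 to 159 FPKM in Ori, 234 to 394 in D14FL and 114.5 to 222 in D30FL, so it overlapped on day 30. All 7 epithelial genes were above 0 in every library. The sum of 7 of 12 exocrine pancreas genes was 74.3 to 127 FPKM in Ori, 397 to 7396 in D14FL and 1123 to 3851 in D30FL, and of these CTRB1 was listed at 0 in Ori 1. The sum of 5 of 6 macrophage and granulocyte genes, mostly LYZ, was 87.9 to 171 FPKM in Ori, 241 to 541 in D14FL and 277 to 1831 in D30FL, highest in D30FL 2. The other genes of that list were mixed. CSF1R measured 1.53 to 2.43 FPKM in Ori, 5.21 to 12.5 in D14FL and 3.51 to 18.5 in D30FL. MPEG1 did not stand higher after release, at 7.85 to 12.3, 6.17 to 10.5 and 4.33 to 8.78 FPKM. MARCO overlapped Ori on both days and CSF3R on day 30. The sum of 6 of 7 T cell genes was 17.7 to 40.5 FPKM in Ori, 11.1 to 28.5 in D14FL and 10.4 to 17.4 in D30FL. On day 30 CD3E, ZAP70 and CD8A lay wholly below Ori, as 6.14% of all transcripts did, and CD3D and LCK overlapped. CD247 lay wholly above Ori on that day, at 0.656 to 0.957 FPKM in Ori and 1.10 to 3.06 in D30FL. Smooth muscle genes, 5 of 6 found, summed to 44.6 to 1204 FPKM in Ori, 122 to 560.05 in D14FL and 391 to 641 in D30FL, where the sums of both later groups lay within the Ori range. CNN1 of that list reached above its own Ori range, at 1.46 to 35.5 FPKM in Ori, 6.86 to 143 in D14FL and 30.2 to 134 in D30FL, with overlapping groups. The sum of 4 of 6 B and plasma cell genes was 14.4 to 189.55 FPKM in Ori, 22.5 to 143 in D14FL and 80.5 to 188 in D30FL, with CD79B listed at 0 in 1 library. The sum of 5 of 5 fibroblast genes was 115 to 461 FPKM in Ori, 152 to 495 in D14FL and 150.02 to 1137 in D30FL, highest in D30FL 3. Of these, COL1A1, COL1A2 and COL3A1 overlapped Ori on both days, while DCN and LUM lay wholly above Ori on both. DCN measured 10.85 to 23.9 FPKM in Ori, 35.2 to 85.1 in D14FL and 57.4 to 84.9 in D30FL, and LUM 0.319 to 2.39, 2.74 to 14.4 and 3.52 to 17.4 FPKM. The sum of the 2 erythrocyte genes found of 4 was 4.47 to 37.0 FPKM in Ori, 33.6 to 50.06 in D14FL and 45.0 to 73.1 in D30FL, above every Ori fish in all D30FL fish, with ALAS2 listed at 0 in 1 library.

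Of the 24 further transcripts of proteasome genes, 21 passed the filter on low values. PSMA6, PSMB3, PSMB4, PSMD1, PSMD9 and SEM1 had most, with 3 transcripts each. The second PSMA6 transcript (TRINITY_DN29342_c0_g4_i1_3) measured 50.04, 73.4 and 62.9 FPKM in Ori, 52.7, 44.7 and 46.9 in D14FL and 54.0, 41.2 and 73.6 in D30FL, with overlapping groups, where the representing one was higher in every D30FL fish than in every Ori fish. The third PSMA6 transcript (TRINITY_DN38192_c2_g1_i3_1) measured 7.09, 8.69 and 14.9 FPKM in Ori, 3.48, 3.51 and 2.12 in D14FL and 0.649, 0.576 and 5.19 in D30FL. It was low, and lower than every Ori fish in all fish of D14FL and D30FL, at -1.82 ± 0.53 (SE; adjusted p = 0.142) on day 14 and -2.46 ± 0.53 (SE; adjusted p = 0.0536) on day 30.

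The second SEM1 transcript (TRINITY_DN29253_c0_g3_i1_3) measured 31.0, 28.2 and 42.8 FPKM in Ori, 20.6, 22.2 and 45.4 in D14FL and 51.0, 64.7 and 33.2 in D30FL. As for the representing SEM1 transcript, D14FL 1 and D14FL 2 were low and D30FL 2 high, and the groups overlapped. The third SEM1 transcript (TRINITY_DN10461_c0_g1_i1_1), whose best match is a deer protein, measured 0.57, 0.329 and 0 FPKM in Ori, 2.34, 2.67 and 2.82 in D14FL and 4.67, 3.11 and 2.78 in D30FL. It was near 0 in all Ori fish and above them in all others, at 1.11 ± 0.37 (SE; adjusted p = 0.056) on day 14 and 1.43 ± 0.37 (SE; adjusted p = 0.0324) on day 30. No other representing or further transcript that was tested passed, where 3.22% of all tested transcripts did on day 30. The third SEM1 transcript reached the 1 FPKM of the filter only in fish after release, so it had to differ from Ori, and nothing is read from its call. With each library left out in turn the limma adjusted p on day 30 ran from 0.0204 to 0.131, and the call was lost in 6 of the 9 fits, all but those without D14FL 2, D14FL 3 or D30FL 3. It was also lost with a pseudocount of 0.01 (adjusted p = 0.0876), median-of-ratios scaling (0.0517), quantile scaling (0.0904), a replicate block (0.0762) and a fit on the 2 groups compared (0.0772). The further transcripts of PSMB3 and PSMB4 stayed under 10 FPKM in every library, and those of PSMD1 and PSMD9 reached 3.45 and 11.1 FPKM at most. Both further PSMB4 transcripts best matched a human protein. TRINITY_DN40045_c0_g1_i1_2 was listed at 0 in Ori and measured 1.32, 1.76 and 1.03 FPKM in D14FL and 0.375, 1.02 and 1.27 in D30FL. The other was not tested. Mammal-matched transcripts of PSMB1 and PSMB3 reached 0.271 and 0.412 FPKM at most in Ori. All of these reached 1 FPKM only after release, so no change is read from them. The further PSMD3 transcript, matched to a bear, was lower after release than in every Ori fish.

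The subunits PSMB8 and PSMB9 replace PSMB5 and PSMB6 in the immunoproteasome, the form that interferon induces. PSMB8 measured 81.4, 86.9 and 125 FPKM in Ori, 42.9, 30.7 and 22.5 in D14FL and 26.7, 13.1 and 80.6 in D30FL, which made 1.80, 2.24 and 2.61 times PSMB5 in Ori, 1.82, 0.916 and 0.344 times in D14FL and 0.462, 0.744 and 1.63 times in D30FL. PSMB8 was lower in every fish after release than in every Ori fish, at -1.98 ± 0.53 (SE; adjusted p = 0.114) on day 14 and -1.98 ± 0.53 (SE; adjusted p = 0.105) on day 30. PSMB9 measured 34.7, 55.3 and 92.2 FPKM in Ori, 16.0, 16.5 and 9.58 in D14FL and 7.15, 4.45 and 29.2 in D30FL, with a relative change of -2.75 ± 0.57 (SE; adjusted p = 0.0477) on day 30, which passed the test. The limma adjusted p ran from 0.00691 to 0.157 with each library left out in turn, and PSMB9 passed only without D30FL 3, so the call was lost in 8 of the 9 fits. It was also lost with a pseudocount of 0.1 (adjusted p = 0.0521) or 0.01 (0.0666), with no filter on low values (0.0503), with a replicate block (0.079) and in a fit on the 2 groups compared (0.0864).

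The genes that act with the proteasome were read from lists by role. None but PSMB9 passed the test in any list, where 2.77% of all tested transcripts did on day 14 and 3.22% on day 30. Some of the listed genes were higher in every fish after release than in every Ori fish. Of all transcripts, 27.8% separated upward from Ori on day 14 and 20.8% on day 30. Of 13 other activators, receptors and inhibitors, 10 were found, with a median relative change of 0.39 on day 14 and 0.45 on day 30. PSME4, a cap that replaces the regulatory particle, measured 2.36, 2.79 and 3.38 FPKM in Ori, 5.36, 6.97 and 7.73 in D14FL and 7.67, 14.6 and 5.49 in D30FL. AKIRIN2, which carries proteasomes into the nucleus, measured 23.0, 19.4 and 21.2 FPKM in Ori, 33.1, 39.4 and 42.2 in D14FL and 44.8, 47.4 and 33.5 in D30FL. Both were higher in every fish after release than in every Ori fish, with day 30 changes of 0.95 ± 0.38 (SE; adjusted p = 0.0741) and 0.57 ± 0.27 (SE; adjusted p = 0.0759). On day 14 the relative changes were 0.61 ± 0.38 (SE; adjusted p = 0.153) and 0.43 ± 0.27 (SE; adjusted p = 0.115).

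Of 7 assembly factors of both particles, 6 were found, with medians of -0.54 and -0.20. PSMG3, which pairs with PSMG4 in building the alpha ring, stood at -0.93 ± 0.40 (SE; adjusted p = 0.421) on day 14 and -0.84 ± 0.40 (SE; adjusted p = 0.484) on day 30. POMP, which chaperones the beta ring, stood at -0.74 ± 0.34 (SE; adjusted p = 0.532) on day 14 and -0.26 ± 0.34 (SE; adjusted p = 0.856) on day 30. PAAF1, a chaperone of an ATPase subunit, stood at 0.04 ± 0.31 (SE; adjusted p = 0.416) on day 30. All 6 lay below the median transcript on day 14 and 5 of 6 on day 30.

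Of 7 transcription factors and processing enzymes of the proteasome genes, 5 were found, with medians of 0.22 and -0.09. These medians count MAFK and MAFG, which passed the filter through fish after release, so no direction of the list is read from them. NFE2L2, DDI2 and NGLY1 stood at 0.22, -0.25 and -0.75 on day 14 and at -0.09, -0.24 and -0.86 on day 30, with overlapping groups. MAFK, a partner of the NRF factors that bind proteasome promoters, measured 0.96, 1.04 and 0.989 FPKM in Ori, 7.46, 5.32 and 9.97 in D14FL and 5.37, 15.7 and 1.86 in D30FL. It was about 1 FPKM in all Ori fish and higher in all others, through which it passed the filter, so its change is not read here. MAFG, a related partner, measured 0.238, 0.415 and 0.473 FPKM in Ori, 1.57, 1.81 and 2.81 in D14FL and 1.19, 3.82 and 0.182 in D30FL. It was under 1 FPKM in all Ori fish and entered the test only through fish after release, so no change is read from it.

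Of 22 genes of the ubiquitin and p97 pathway, 17 were found and 16 tested, with medians of -0.01 and 0.27. UBB, a ubiquitin gene, measured 904, 667 and 879 FPKM in Ori, 1616, 1599 and 1677 in D14FL and 1287, 1729 and 1482 in D30FL. UFD1, a ubiquitin recognition factor of the p97 pathway, measured 27.7, 33.1 and 34.8 FPKM in Ori, 48.7, 43.9 and 54.8 in D14FL and 50.9, 57.4 and 48.4 in D30FL. Both were higher in every fish after release than in every Ori fish, with changes of 0.63 ± 0.33 (SE; adjusted p = 0.111) and 0.23 ± 0.26 (SE; adjusted p = 0.191) on day 14 and 0.51 ± 0.33 (SE; adjusted p = 0.141) and 0.33 ± 0.26 (SE; adjusted p = 0.138) on day 30. FAF1, a p97 cofactor, stood at 0.60 ± 0.37 (SE; adjusted p = 0.141) on day 30. Of 5 ubiquitin ligases known from muscle wasting and starvation, 3 were found, with medians of 0.12 and 0.20. FBXO32 measured 3.28, 2.46 and 1.24 FPKM in Ori, 10.8, 2.55 and 19.6 in D14FL and 6.09, 51.9 and 1.91 in D30FL, with overlapping groups and D30FL 2 far above the rest, and stood at 1.19 ± 0.91 (SE; adjusted p = 0.311) on day 14 and 1.31 ± 0.91 (SE; adjusted p = 0.274) on day 30. FBXO21 stood at 0.12 ± 0.38 (SE; adjusted p = 0.431) on day 14 and 0.20 ± 0.38 (SE; adjusted p = 0.365) on day 30. MUL1, a mitochondrial ubiquitin ligase, lay below the median transcript, at -0.51 ± 0.37 (SE; adjusted p = 0.853) on day 14 and -0.52 ± 0.37 (SE; adjusted p = 0.824) on day 30.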

How the data were processed

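Gut poly(A) RNA-seq libraries of 9 kaluga sturgeon were analysed, 3 in each of 3 groups set by the labels' titles. Per the submitters' processing notes, cutadapt 1.9 was used, and a mouse build (mm10) is named without a role. For the assembler, the quantifier and the read depth, nothing is given in the sources used here. As values, the authors' deposited table holds FPKM, a unit known from its name and header alone, for 59331 transcripts with annotation. Values above 0 go too low for whole reads to be recovered, so depth is unknown and no counting interval is given.

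Symbols were taken from the Swiss-Prot description, since the gene name field often holds an alias. Taken literally, that field gives 42 names for the 35 genes. The members and gene lists were chosen with earlier results of these data known. The 54200 transcripts that reached 1 FPKM in 3 or more libraries were tested with limma 3.58.1 in R 4.3.3 (eBayes with trend) on log2(FPKM + 1), over all 9 libraries without a block, in tests of both directions. The residual and prior degrees of freedom were 6 and 5.73. A call is a Benjamini-Hochberg adjusted p under 0.05. Log2 changes understate those of low transcripts. Each library is a separate fish, and p-values set a group difference against the spread between fish, which limma moderates over all tested transcripts.

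Values in every library are given for the highest gene and the genes with the smallest p of each role, the chaperones, the highest and lowest change of each comparison, and for companion lists the genes with the smallest p. The fit was checked on simulated data. Software was the R package data.table (version 1.17.8), Python 3.11.15, pandas 2.3.3, numpy 2.4.6 and matplotlib 3.10.9. The alternatives were other pseudocounts, filters, scalings, thresholds and fits, a block, and each library left out.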

Additional observations from a re-analysis of the deposited data

How the results depend on the processing

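The count of proteasome genes passing the test was 0 in every comparison under every alternative run, except for 1 gene (PSMB7) on day 30 against day 0 without D30FL 3, so leaving out 1 library gave 0 to 1 there and 0 to 0 in the others. Median-of-ratios scaling brought the smallest adjusted p (limma) of the 35 genes to 0.0986 on day 14 and 0.0858 on day 30, with 11 and 4 genes at an unadjusted p under 0.05, and put 34 and 30 of 35 genes below 0 where the deposited scaling put 22 and 13. Leaving out 1 library at a time moved the relative core median from -0.89 to -0.58 on day 14, from -0.77 to -0.27 on day 30 and from -0.11 to 0.37 between them. It moved the regulatory median from -0.55 to -0.27, from -0.26 to -0.06 and from 0.13 to 0.46. The core minus regulatory difference ran from -0.47 to -0.20, from -0.58 to -0.19 and from -0.32 to 0.06. An alternative chosen after seeing the data, a mean FPKM of at least 10, gave core medians of -0.61 and -0.47 and regulatory medians of -0.30 and -0.05. The calls over the whole table moved more than those of the proteasome genes, and the cause was not tested. Beside the 1501, 1746 and 1 transcripts called on day 14, on day 30 and between them, quantile scaling gave 897 and 937, the replicate block 315 and 357, fits on the 2 groups compared 3335, 507 and 0, and an adjusted p under 0.1 gave 4334 and 5184. A pseudocount of 0.01 and the mean of at least 10 each gave 0 between day 14 and day 30. Leaving out 1 library gave 139 to 3649, 98 to 6466 and 0 to 2. Replicate numbers name other fish in each group, and same-numbered fish did not deviate together (correlations of -0.32 to 0.20), so the replicate block has no design behind it, and it changed no call among the 35 genes, while the day 30 calls of the third SEM1 transcript and of PSMB9 were lost with it (limma, adjusted p = 0.0762 and 0.079). Quantile scaling took the core minus regulatory difference from -0.30 to -0.14 on day 14 and from -0.42 to -0.28 on day 30. Leaving out PSMB10 changed nothing, since no such gene was among the 35.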
